A study of Mus musculus with 22 samples.

Results

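Mature B cell surface genes were followed in mouse whole bone marrow. The set is the 10 genes Ms4a1, Cr2, Fcer2a, Fcrl1, Fcrla, Cd22, Cd72, Cd37, Cxcr5 and Tnfrsf13c, taken by gene name from the deposited tables of 47069 genes. All 10 passed the filter on low counts and were among the 17659 genes tested. They were chosen by name as receptors of mature B cells. Fcrla is the exception to the name, since it encodes an Fc receptor-like protein that is kept inside the B cell.

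The marrow came from 22 C57BL/6 mice that had been irradiated and transplanted with LSK cells, lineage-negative marrow cells positive for Sca-1 and Kit, among them the blood stem cells. The LSK cells came from Cas9 knock-in mice and carried single guide RNAs (sgRNAs), so all 6 groups share Cas9, guide transduction, irradiation and transplantation. The groups were sgLuc (6 mice), whose guide against luciferase has no mouse target, the 3 single-gene groups sgRunx1 + sgLuc, sgBcor + sgLuc and sgEzh2 + sgLuc with 3 mice each, and the doubles sgBcor + sgRunx1 (3) and sgEzh2 + sgRunx1 (4). Marrow was collected when a mouse showed leukemia or at a fixed late time, and the sources used here give neither the reason for each mouse nor the ages. Whole marrow also holds cells of the host and cells that escaped editing, so a group is not a pure population of edited cells. Runx1 is a transcription factor of blood formation, Ezh2 the histone methyltransferase of Polycomb complex PRC2, while Bcor is a corepressor that works in a form of complex PRC1.

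B cells begin in the marrow as pro-B and pre-B cells that rearrange their immunoglobulin genes, and they gain the surface proteins studied here mostly after they express a complete B cell receptor. Mature B cells leave for spleen and lymph nodes and some return to the marrow. The members act in 3 ways: as co-receptors that raise or lower B cell receptor signalling (Cr2, Fcrl1, Cd22, Cd72, with Ms4a1 and Cd37 as membrane organizers), as receptors for antibody or complement (Fcer2a, Cr2), and as receptors for homing and survival signals (Cxcr5, Tnfrsf13c).

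Total counts ran from 30023722 to 57175449 per library. The guide target Ezh2 itself was lower wherever its guide was used, by −0.67 ± 0.17 in sgEzh2 + sgLuc and −0.86 ± 0.15 in sgEzh2 + sgRunx1 (log2 fold change against sgLuc ± SE, edgeR quasi-likelihood test, adjusted p = 0.0212 and 0.00127). Bcor reads were higher in sgBcor + sgLuc (1.28 ± 0.27, edgeR adjusted p = 0.0139), and Runx1 reads did not pass the test in any group with its guide (0.28 to 0.32, edgeR adjusted p from 0.119 to 0.226). Total reads of a targeted gene do not show whether its coding sequence is intact. The Y-linked gene Ddx3y lay at 39.8 to 70.2 CPM (reads scaled to library size, with TMM factors) in the sgLuc libraries and had 0 reads in the other 16, so sex and guide cannot be told apart in comparisons with sgLuc. Library sgEzh2 + sgLuc replicate 3 stood apart, with the T cell receptor chain gene Cd3d at 484 CPM against 0.111 to 16.7 elsewhere and the neutrophil gene S100a8 at 63.2 CPM against 6838 to 25057.

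Bases 250 to 1 before the transcript start (RefSeq, GRCm38.p6) were available for 8 of the 10 members. They are shown for 4 members because 3 hold a match to the RUNX or EBF motif searched and the fourth, Cd37, was not called lower with the rest. Capitals mark matches, on either strand, to the RUNX core TGTGGT or TGCGGT, or to an EBF motif written as TCCC and GGGA with any pair of bases between them. The windows lie on the minus strand at chr8:3694175-3694424, chr15:82224381-82224630, chr7:30879029-30879278 and chr7:45238840-45239089, in that order.
Fcer2a: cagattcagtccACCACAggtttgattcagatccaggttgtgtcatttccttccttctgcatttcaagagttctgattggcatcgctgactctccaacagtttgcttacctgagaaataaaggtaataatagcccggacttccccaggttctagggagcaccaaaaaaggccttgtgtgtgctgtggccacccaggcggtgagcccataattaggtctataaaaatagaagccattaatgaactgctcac
Tnfrsf13c: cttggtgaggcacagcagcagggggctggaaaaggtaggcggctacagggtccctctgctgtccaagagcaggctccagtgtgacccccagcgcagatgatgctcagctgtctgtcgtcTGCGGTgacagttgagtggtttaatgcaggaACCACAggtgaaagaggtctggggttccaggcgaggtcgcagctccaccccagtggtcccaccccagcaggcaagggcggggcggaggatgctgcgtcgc
Cd22: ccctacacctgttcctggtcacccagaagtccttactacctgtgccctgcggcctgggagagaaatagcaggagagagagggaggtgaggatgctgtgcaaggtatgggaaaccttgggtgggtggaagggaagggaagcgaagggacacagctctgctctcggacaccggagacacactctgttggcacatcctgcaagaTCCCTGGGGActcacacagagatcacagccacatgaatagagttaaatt
Cd37: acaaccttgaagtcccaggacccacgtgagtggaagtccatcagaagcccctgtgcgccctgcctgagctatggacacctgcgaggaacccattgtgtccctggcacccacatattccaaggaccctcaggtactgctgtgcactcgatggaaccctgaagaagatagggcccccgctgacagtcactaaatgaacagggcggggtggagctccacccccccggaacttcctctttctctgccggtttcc
The 8 members have 10 windows in all, since Fcer2a has 3, of which the one with a match is shown. A RUNX match was in 2 of the 10 windows, Fcer2a at −238 and Tnfrsf13c at −131 and −100 from the start, and in 18.6% of 32851 windows of all genes. The EBF motif was in 1 of 10 windows (Cd22) and in 0.779% of all windows. The octamer ATGCAAAT was in 0 of 10 and in 1.60% of all, and the ETS core GAGGAA in 4 of 10 (Fcrl1, Cd37, Fcrla and Cd72) and in 23.3% of all. These are matches of letters and say nothing of binding.

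In sgLuc marrow the 10 genes spanned a wide range of levels per gene length. Cd37, a tetraspanin found on B cells and more weakly on other leukocytes, stood first at 358 ± 54.3 FPKM (deposited fragment counts scaled to gene length and library size; mean ± SD, n = 6). Fcrla (40.2 ± 11.4), Cd72 (37.6 ± 16.1) and Cd22 (22.3 ± 7.12) followed. Ms4a1 (15.3 ± 7.06), Tnfrsf13c (9.80 ± 4.40), Fcrl1 (8.07 ± 1.42) and Fcer2a (7.91 ± 4.50) came next. Cxcr5 (3.37 ± 1.58) and Cr2 (2.96 ± 1.52) were lowest. Within every sgLuc mouse Cd37 lay above Fcrla, Cd72 above Cd22, Cd22 above Ms4a1, Ms4a1 above Tnfrsf13c and Fcer2a above Cxcr5. The other neighbours in that order changed places between mice.

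Marrow with the Runx1 guide held less transcript of 9 of the 10 genes, except that Fcrl1 in sgEzh2 + sgRunx1 was not called lower than in sgLuc. In the 10 libraries with that guide and the 12 without it, CPM values did not overlap for Ms4a1, Cr2, Fcer2a, Fcrla, Cd72, Cxcr5 and Tnfrsf13c. They overlapped for Fcrl1, Cd22 and Cd37. In whole marrow, fewer B cells and less RNA per B cell cannot be told apart.

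**Figure D1:**
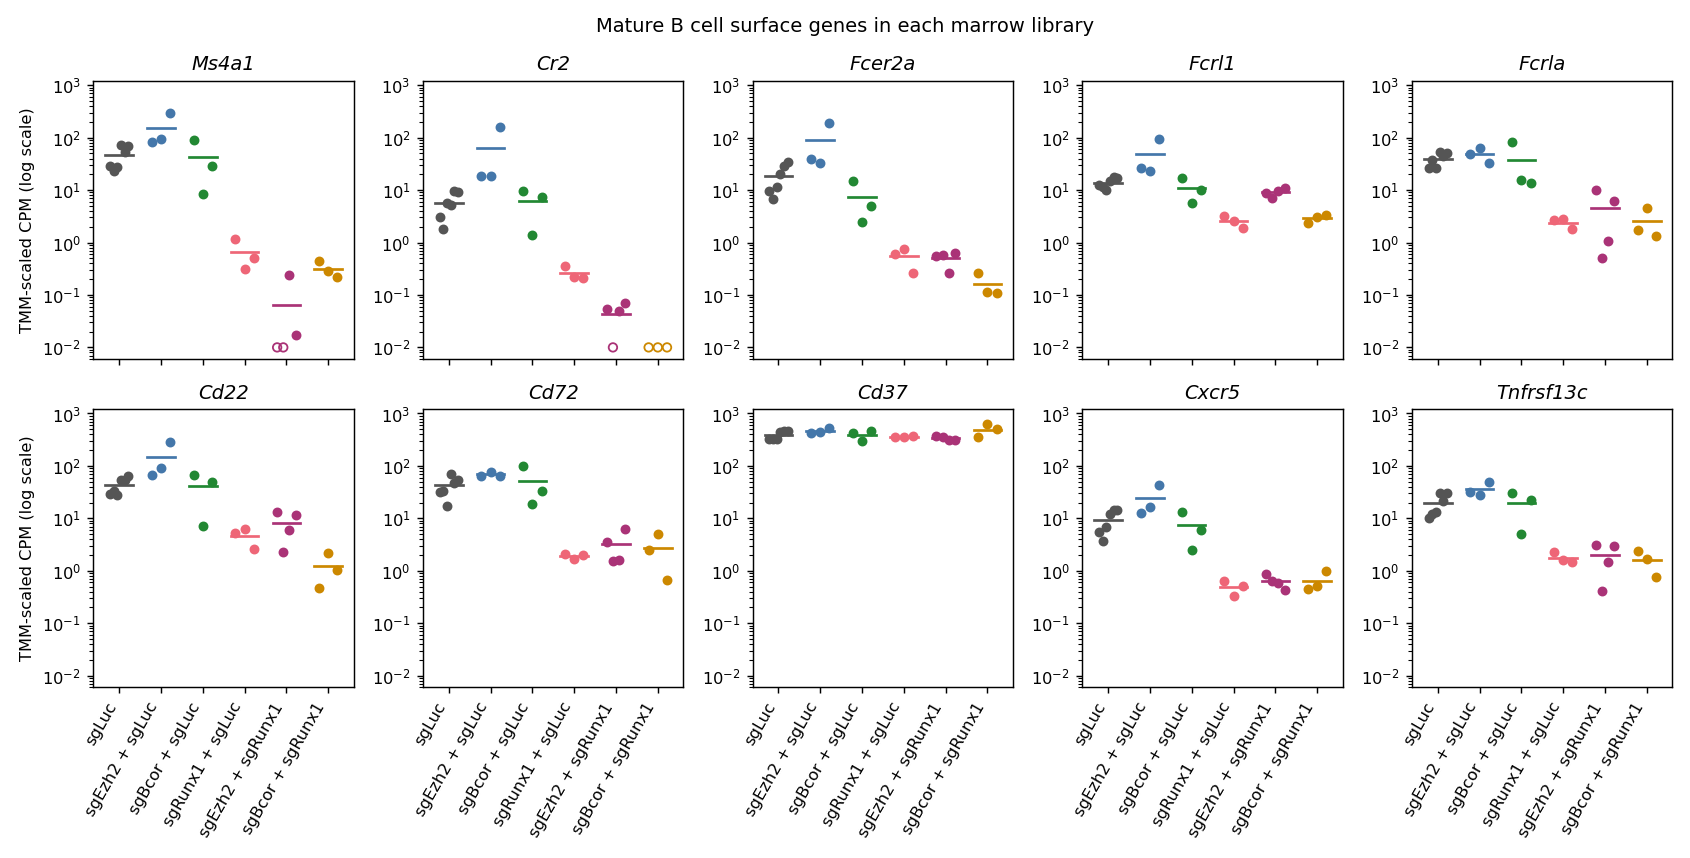
TMM-scaled CPM (log scale) of each member in each of 22 libraries, by group; points are mice, bars are group means, and open circles drawn at the bottom mark libraries with 0 reads. The 3 groups with the Runx1 guide lie below the other 3 in every panel except Cd37, Fcrl1 and Cd22. For Cd37 all groups lie between 295 and 624 CPM. For Fcrl1 every sgEzh2 + sgRunx1 library lies above the lowest library without the guide (5.56 CPM). For Cd22 the lowest library without the guide (7.29 CPM) lies below the highest with it (13.1 CPM).

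Ms4a1 encodes CD20, a membrane protein that shapes calcium entry after B cell receptor stimulation. Its level in sgLuc ran from 23.5 to 73.3 CPM with a median of 40.8. It was 1.15, 0.314 and 0.517 CPM in the sgRunx1 + sgLuc mice. The 4 sgEzh2 + sgRunx1 libraries held 0, 0, 10 and 1 reads of it, and the 3 sgBcor + sgRunx1 libraries 19, 10 and 8. No library with the Runx1 guide held more than 45 reads of it, while the lowest of the other 12, sgBcor + sgLuc replicate 2, held 8.34 CPM. Against sgLuc the log2 fold change was −6.12 ± 0.90 in sgRunx1 + sgLuc, −9.43 ± 1.00 in sgEzh2 + sgRunx1 and −7.13 ± 0.97 in sgBcor + sgRunx1 (edgeR adjusted p = 0.000677, 1.43e-05 and 0.000195).

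Cr2 encodes CD21, the receptor for complement C3 fragments, and it is also made by follicular dendritic cells. It had a median of 5.43 CPM in sgLuc (1.80 to 9.42). The sgRunx1 + sgLuc libraries held 0.357, 0.224 and 0.207 CPM, and the sgEzh2 + sgRunx1 libraries 0.0551, 0, 0.0486 and 0.0697 CPM. No read of it was counted in any of the 3 sgBcor + sgRunx1 libraries. All libraries with the Runx1 guide were again below all others. Cr2 changed by −4.44 ± 0.93 in sgRunx1 + sgLuc and by −6.91 ± 1.01 in sgEzh2 + sgRunx1 on the log2 scale (edgeR adjusted p = 0.00806 and 0.000418), and the first of these calls was lost without sgRunx1 + sgLuc replicate 2 (adjusted p = 0.0575). In sgBcor + sgRunx1 it was at least 217-fold lower than in sgLuc, counting 3 reads over the group as the limit (edgeR adjusted p = 0.000544).

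Fcer2a encodes CD23, the low-affinity IgE receptor of naive follicular B cells. It ran from 6.67 to 33.6 CPM in sgLuc with a median of 15.8. The sgRunx1 + sgLuc mice had 0.613, 0.762 and 0.259 CPM. The sgEzh2 + sgRunx1 mice had 0.551, 0.581, 0.267 and 0.645 CPM, and the sgBcor + sgRunx1 mice 0.262, 0.113 and 0.111 CPM. No library of these 3 groups reached 1 CPM. The log2 fold changes against sgLuc were −5.07 ± 0.84, −5.16 ± 0.74 and −6.78 ± 0.96 (edgeR adjusted p = 0.00141, 0.000243 and 0.000227).

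Fcrl1, an Fc receptor-like protein that amplifies B cell receptor signals, behaved differently in one of the 3 groups. Its levels were 10.2 to 17.4 CPM in sgLuc with a median of 13.8. They were 3.17, 2.58 and 1.89 CPM in sgRunx1 + sgLuc and 2.33 to 3.28 CPM in sgBcor + sgRunx1. They were 8.95, 6.92, 9.49 and 10.9 CPM in sgEzh2 + sgRunx1. That group therefore overlapped sgLuc and lay wholly above the other 2 groups with the Runx1 guide. Fcrl1 fell in sgRunx1 + sgLuc (−2.45 ± 0.43) and in sgBcor + sgRunx1 (−2.28 ± 0.42; edgeR adjusted p = 0.00188 and 0.00142), and its value of −0.62 ± 0.35 in sgEzh2 + sgRunx1 did not pass (edgeR adjusted p = 0.300). Fcrla, the intracellular relative, fell in all 3 groups, from a median of 41.0 CPM in sgLuc to 2.68, 3.59 and 1.74 CPM in sgRunx1 + sgLuc, sgEzh2 + sgRunx1 and sgBcor + sgRunx1. Its log2 fold changes were −4.04 ± 0.86, −3.15 ± 0.71 and −3.98 ± 0.85 (edgeR adjusted p = 0.00717, 0.00786 and 0.00443). Within sgEzh2 + sgRunx1 it spread from 0.508 to 10.2 CPM, so those mice differed widely from each other.

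The inhibitory receptors were lower as well. Cd22, a sialic acid-binding lectin that recruits phosphatases to the B cell receptor, ran from 28.4 to 63.9 CPM in sgLuc with a median of 43.6. It was 5.18, 6.23 and 2.61 CPM in sgRunx1 + sgLuc, 13.1, 2.32, 6.02 and 11.4 CPM in sgEzh2 + sgRunx1, and 0.476, 2.21 and 1.06 CPM in sgBcor + sgRunx1. The groups did not overlap sgLuc. Cd22 changed by −3.22 ± 0.73, −2.41 ± 0.62 and −5.14 ± 0.84 (edgeR adjusted p = 0.0110, 0.0171 and 0.000597). The first call was lost without any 1 of the sgRunx1 + sgLuc libraries and the second without sgEzh2 + sgRunx1 replicate 2 or 3, with adjusted p of at most 0.0983 and 0.0973. Cd72, a lectin-like receptor with inhibitory motifs that binds Sema4d, ran from 17.6 to 70.9 CPM in sgLuc and from 0.667 to 6.38 CPM over the 10 libraries with the Runx1 guide. Its log2 fold changes were −4.48 ± 0.73, −3.70 ± 0.61 and −3.98 ± 0.70 (edgeR adjusted p = 0.00123, 0.000718 and 0.00113).

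The homing and survival receptors fell in all 3 groups. Cxcr5, the receptor for the follicle chemokine Cxcl13, stood at 3.73 to 14.4 CPM in sgLuc and at 0.336 to 0.973 CPM over the libraries with the Runx1 guide. Tnfrsf13c, the receptor for the B cell survival factor BAFF (Tnfsf13b), stood at 10.1 to 30.9 CPM in sgLuc and at 0.411 to 3.11 CPM with the guide. Neither gene's ranges overlapped. Cxcr5 changed by −4.26 ± 0.64, −3.92 ± 0.55 and −3.88 ± 0.63, and Tnfrsf13c by −3.46 ± 0.66, −3.30 ± 0.58 and −3.59 ± 0.67 (edgeR adjusted p from 0.000181 to 0.00386).

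Cd37 was the member that did not pass in any comparison made. It measured 322 to 472 CPM in sgLuc, with a median of 388. It measured 351, 351 and 366 CPM in sgRunx1 + sgLuc, 373, 356, 317 and 318 CPM in sgEzh2 + sgRunx1, and 354, 624 and 499 CPM in sgBcor + sgRunx1. The groups overlapped. The log2 fold changes against sgLuc were −0.14 ± 0.18, −0.21 ± 0.16 and 0.32 ± 0.18 (edgeR adjusted p = 0.708, 0.488 and 0.242). The exons of Cd37 overlap Tead2 on the opposite strand and strand use in counting is not given, but Tead2 stayed at 1.02 to 4.64 CPM. Cd72 and Cxcr5 likewise overlap Tesk1 (3.36 to 15.2 CPM) and Bcl9l (7.16 to 82.5 CPM), and reads of such pairs cannot be told apart, while Gm29439, which overlaps Cd22, had 0 reads.

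In counts, 9 of 10 members were lower in sgRunx1 + sgLuc than in sgLuc, where 5.36% of all tested genes were called lower. The count was 8 of 10 in sgEzh2 + sgRunx1 (6.09% of all genes) and 9 of 10 in sgBcor + sgRunx1 (9.69%). The members' median log2 fold changes were −4.15, −3.50 and −3.98, beside −0.04, 0.00494 and −0.02 over all genes. These 3 comparisons share the sgLuc libraries.

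**Figure D2:**
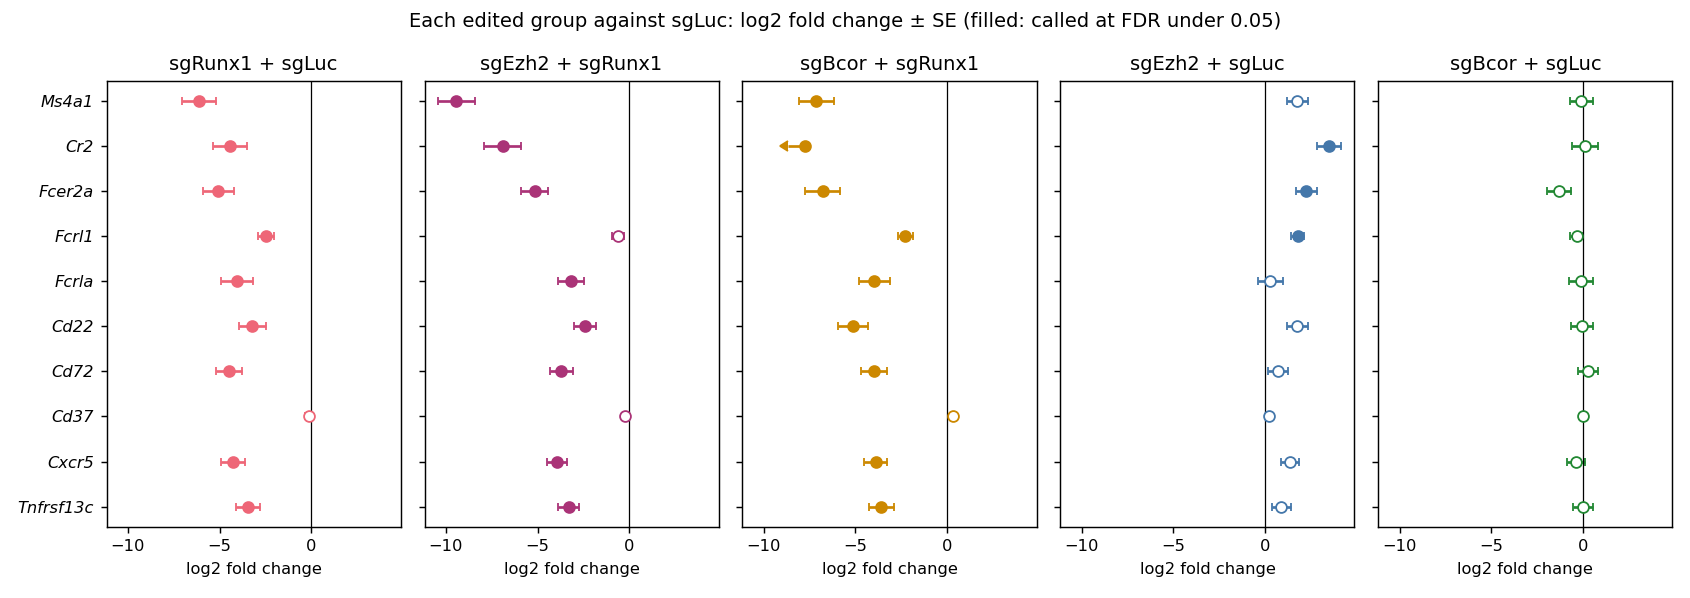
Log2 fold change (points) with its SE (bars) of each member in each edited group against sgLuc, with filled points for genes called at an edgeR adjusted p under 0.05; the arrow for Cr2 in sgBcor + sgRunx1 starts at the lower bound from 3 reads. Cd37 sits near 0 in all 5 panels, the other members lie far to the left in the 3 groups with the Runx1 guide except Fcrl1 in sgEzh2 + sgRunx1, and the sgBcor + sgLuc panel holds no filled point.

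A comparison without sgLuc called the same 9 members as sgRunx1 + sgLuc against sgLuc did. The mean of the 3 groups with the Runx1 guide was set against the mean of sgEzh2 + sgLuc and sgBcor + sgLuc, none of which held Ddx3y reads. Again 9 of 10 members were lower, with 16.9% of all genes called lower and 8.23% higher, and the members' median was −4.47 beside −0.05 over all genes. Ms4a1 changed by −8.40 ± 0.61 and Fcer2a by −6.14 ± 0.54. Cr2 was at −8.16 or lower when sgBcor + sgRunx1, with 0 reads of it, was counted as 3 reads over the group. Cd72 (−4.53 ± 0.44), Cxcr5 (−4.51 ± 0.39), Cd22 (−4.44 ± 0.48), Tnfrsf13c (−3.88 ± 0.42) and Fcrla (−3.81 ± 0.52) formed a middle group. Fcrl1 changed least among the 9 (−2.49 ± 0.27), and the edgeR adjusted p ran from 2.26e-07 for Ms4a1 to 3.35e-05 for Fcrla. Cd37 was at −0.13 ± 0.13 (edgeR adjusted p = 0.508). The single pairs gave counts of 9 lower for sgRunx1 + sgLuc against sgEzh2 + sgLuc (10.8% of all genes), for sgRunx1 + sgLuc against sgBcor + sgLuc (3.68%), for sgEzh2 + sgRunx1 against sgEzh2 + sgLuc (8.64%) and for sgBcor + sgRunx1 against sgBcor + sgLuc (8.77%). The second of these rested on few mice: the count was 3 without sgRunx1 + sgLuc replicate 2 or 3, and 5 without sgRunx1 + sgLuc replicate 1 or sgBcor + sgLuc replicate 1.

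The other genes of the B cell receptor pathway were lower in part. In the comparison without sgLuc, 8 of 17 signalling genes were lower and 1 higher. Cd79a (−6.23 ± 0.62), a signalling chain of the receptor, fell by an amount within the range of the members, and so did the kinase Blk (−6.47 ± 0.74) and the adaptor Bank1 (−3.04 ± 0.33; edgeR adjusted p at most 6.33e-06 for these 3). The inhibitory Fc receptor Fcgr2b, which myeloid cells also make, rose by 0.84 ± 0.20 (edgeR adjusted p = 0.00503). The kinases Syk, Lyn and Btk, which many blood cells use, were at −0.03, 0.33 and 0.23 and did not pass. Of 22 other mature B cell genes, 16 were lower and 1 higher, led by the IgM receptor Fcmr (−7.74 ± 0.63) and the homing receptor Ccr6 (−6.82 ± 0.75). Of 10 B cell transcription factors, 7 were lower. Ebf1 (−7.30 ± 0.82), Pax5 (−7.17 ± 0.82), Pou2af1 (−6.99 ± 0.73) and Ikzf3 (−5.19 ± 0.55) fell most, and Spi1 and Irf8, shared with myeloid cells, were at 0.53 and −0.07 and did not pass.

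Of 6 tested genes in a list of ligands and partners, 4 were lower and 0 higher. Cd40lg was put in that list although its receptor Cd40 is not a member. St6gal1, the enzyme that makes the sialic acid linkage Cd22 binds, fell by 5.39 ± 0.48, and Cd40lg of T cells fell by 6.83 ± 1.52. The BAFF gene Tnfsf13b fell by 1.51 ± 0.50 and Sema4d, the partner of Cd72, by 0.53 ± 0.12 (edgeR adjusted p from 6.59e-07 to 0.0332). In single pairs Cd40lg was called lower than in sgEzh2 + sgLuc in sgRunx1 + sgLuc (−9.61) and sgEzh2 + sgRunx1 (−7.98). Against sgBcor + sgLuc it was not called in sgRunx1 + sgLuc (−3.37) or sgBcor + sgRunx1 (−6.03; edgeR adjusted p = 0.583 and 0.286). The complement gene C3 (0.86 ± 0.44) did not pass, and Cxcl13, at 0 to 0.126 CPM, was too low to test. Cxcl13 is a defining product of follicular dendritic cells. In a joint list of follicular dendritic and stromal cell genes, 2 of 6 tested genes, Vcam1 and Clu, were higher. The rest of that list, Cxcl12 (−1.66), Lepr (−0.59), Col1a1 (−0.29) and Pdgfrb (−0.24), leaned lower and did not pass. The part of these cells in the members' levels was not tested.

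**Figure D3:**
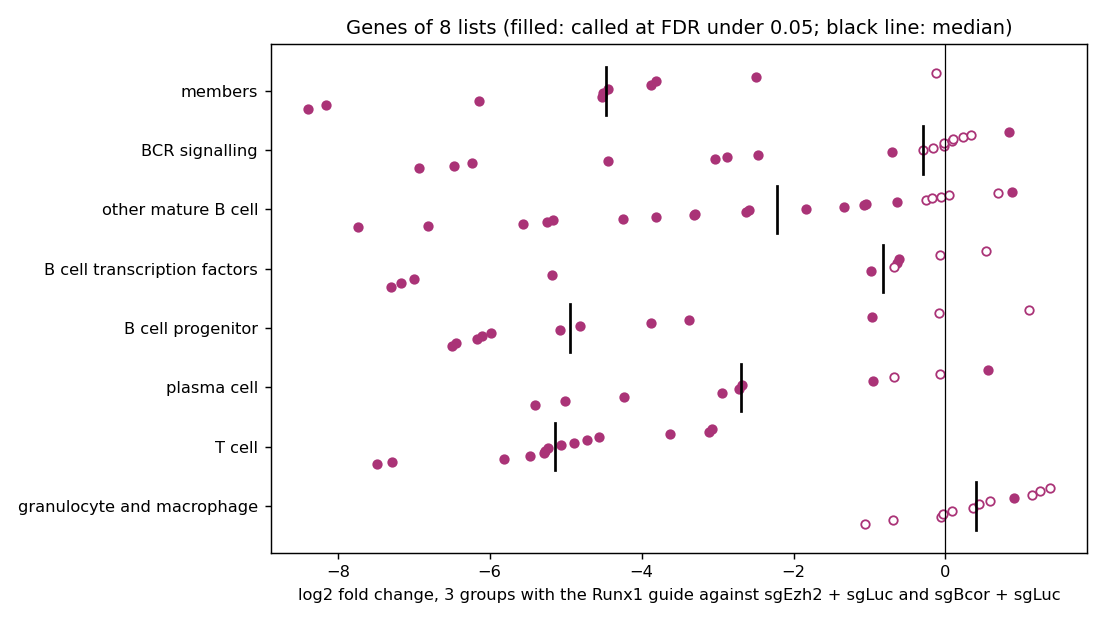
Log2 fold change of each tested gene of 8 lists, groups with the Runx1 guide against sgEzh2 + sgLuc and sgBcor + sgLuc; filled points were called at an edgeR adjusted p under 0.05, the black line is the list's median, and Cr2 is drawn at its bound from 3 reads. The members (median −4.47) lie to the left with the B cell progenitor (−4.94) and T cell (−5.14) genes, while the granulocyte and macrophage genes centre at 0.40. These values include sgEzh2 + sgLuc replicate 3, the library rich in T cell genes and poor in granulocyte and macrophage genes.

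Markers of other lymphoid cells moved with the members in this comparison. All 14 T cell genes were lower, as were 10 of 12 B cell progenitor genes, 7 of 10 plasma cell genes and 6 of 8 plasmacytoid dendritic cell genes. In the T cell list the summed level was 5.55 to 32.5 CPM over the libraries with the Runx1 guide, 89.7 to 232 CPM in sgBcor + sgLuc and 151 to 3472 CPM in sgEzh2 + sgLuc. Granulocyte and macrophage genes were 0 of 12 lower and 1 higher, and 0 of 6 erythroid genes changed in either direction. The reference side of these counts included sgEzh2 + sgLuc replicate 3. Its granulocyte and macrophage list summed to 401 CPM, against 85957 and 70446 CPM in replicates 1 and 2. Its T cell list summed to 3472 CPM, against 151 and 184 CPM. Against sgLuc, 0 of 14 T cell genes and 1 of 12 progenitor genes (Il7r) were called in sgRunx1 + sgLuc, beside 8 of 17 signalling genes and 7 of 10 plasma cell genes. The summed T cell level was still 57.8 to 153 CPM in sgLuc and 7.39 to 32.5 CPM in sgRunx1 + sgLuc, without overlap. Sums of the progenitor list overlapped (246 to 423 and 299 to 408 CPM). Levels of its genes Rag1 and Dntt overlapped as well. Those of Igll1 (5.30 to 39.9 and 0.963 to 4.31 CPM), Vpreb1, Vpreb3 and Rag2 did not, and none of these named genes was called. The part of these cells in the members' levels was not tested.

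No member was called lower than in sgLuc in either single-gene Polycomb group. In sgBcor + sgLuc, 0 of 10 were called by edgeR in either direction against sgLuc, where 3.16% of all genes were, and 0 passed an unadjusted p of 0.05 or the DESeq2 test. Estimates ran from −1.31 ± 0.65 for Fcer2a to 0.26 ± 0.55 for Cd72. The 3 mice differed widely. Ms4a1 was 90.9, 8.34 and 29.0 CPM and Cd22 was 68.6, 7.29 and 49.96 CPM, so replicate 2 was the low one in both. That library was low in B cell genes in general, with Cd79a at 16.5 CPM against 372 and 627 CPM in the other 2. Replicate 3 held the highest Cd79a of all 22 libraries and 4.91 CPM of Fcer2a and 13.5 CPM of Fcrla.

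In sgEzh2 + sgLuc, 3 of 10 members were higher than in sgLuc, where 6.29% of all genes were called higher, and the members' median was 1.56 beside 0.06. Cr2 rose by 3.48 ± 0.67, Fcer2a by 2.26 ± 0.59 and Fcrl1 by 1.78 ± 0.36 (edgeR adjusted p = 0.00625, 0.0249 and 0.00625). Replicate 3, the library rich in T cell genes, carried these calls. Cr2 was 18.2, 18.3 and 156 CPM, Fcer2a 38.3, 32.5 and 194 CPM and Fcrl1 26.0, 23.5 and 93.6 CPM in replicates 1, 2 and 3. Without replicate 3, 0 of 10 members were called, at log2 fold changes of 1.66 for Cr2, 0.94 for Fcer2a and 0.83 for Fcrl1 (edgeR adjusted p = 0.198, 0.514 and 0.206), whereas 6 were called without replicate 1. Replicates 1 and 2 still lay above all sgLuc libraries for Ms4a1 (83.2 and 94.7 CPM), Cr2, Fcrl1 and Cd22 (68.5 and 93.4 CPM). Among T cell genes, 11 of 14 were higher in this group, a count that includes replicate 3. The T cell list summed to 151, 184 and 3472 CPM in replicates 1, 2 and 3, against 57.8 to 153 CPM in sgLuc.

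The members did not rise evenly in sgEzh2 + sgLuc replicate 3. Ms4a1 (289 CPM), Cd22 (282 CPM), Cxcr5 (43.9 CPM) and Tnfrsf13c (49.9 CPM) were the highest of all 22 libraries, as were Cr2, Fcer2a and Fcrl1. Fcrla (32.8 CPM) was instead the lowest of its group, and Cd72 (64.5 CPM) was close to the 65.3 and 77.5 CPM of the other 2 mice. The read ratio of Cr2 to Fcrla, which no library scaling affects, was 4.76 there, against 0.376 and 0.282 in the other 2 mice. It was 0.0471 to 0.215 in sgLuc and 0.548 in sgBcor + sgLuc replicate 3. This pair sets a member that rose over one that did not, so the ratio restates the levels above. The ratio of Cr2 to Cd72 was 2.42 there, against 0.278 and 0.236 in the other 2 mice. Of the B cell precursor genes, the 5 genes Vpreb1, Vpreb3, Igll1, Rag1 and Rag2 summed to 4.58 CPM there, against 253 and 169 CPM in replicates 1 and 2. Vpreb1, a part of the surrogate light chain, was at 0.170 CPM and the recombinase gene Rag1 at 0.0189 CPM. The whole list of 12 progenitor genes summed to 455 CPM against 591 and 483 CPM, and in replicate 3 most of that was Il7r (265 CPM) and Lef1 (178 CPM), which T cells also make.

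**Figure D4:**
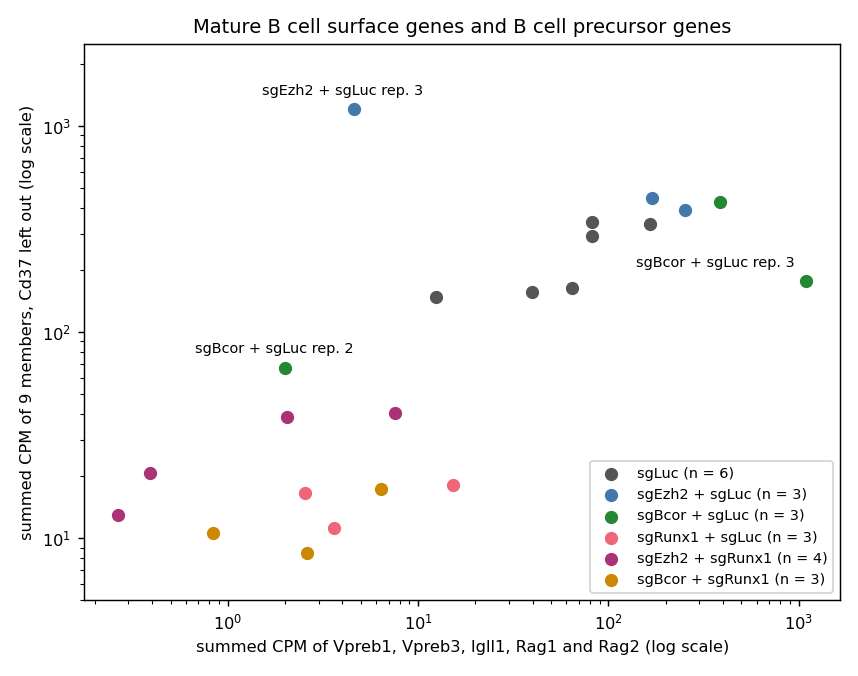
Summed CPM of 9 members (all but Cd37) against summed CPM of the 5 precursor genes Vpreb1, Vpreb3, Igll1, Rag1 and Rag2, both on log scales, 1 point per library, with these 5 picked after their values were seen. sgEzh2 + sgLuc replicate 3 combines 1206 CPM of members, the highest of all libraries, with 4.58 CPM of precursor genes. sgBcor + sgLuc replicate 3 combines 176 CPM of members with 1093 CPM of precursor genes, the highest of all libraries. sgBcor + sgLuc replicate 2 combines 67.3 with 2.001 CPM.

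The balance of member and precursor genes also differed in sgBcor + sgLuc. Replicate 3 summed to 1093 CPM of the 5 precursor genes, the highest of all libraries, and replicate 2 to 2.001 CPM. The members without Cd37 summed to 176 and 67.3 CPM in the same mice, and to 428 CPM in replicate 1. Fcer2a and Fcrl1 were lower in sgBcor + sgLuc than in sgEzh2 + sgLuc (−3.56 ± 0.78 and −2.13 ± 0.45, edgeR adjusted p = 0.0438 and 0.0311), 2 of 10 members where 0.43% of all genes were called lower. Both calls were lost without sgEzh2 + sgLuc replicate 3, or without sgBcor + sgLuc replicate 2 or 3.

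The doubles were then set against sgRunx1 + sgLuc. In sgEzh2 + sgRunx1 against sgRunx1 + sgLuc, 0 of 10 were called by edgeR in either direction (0.187% of all genes), with 2 at an unadjusted p under 0.05 and 2 called by DESeq2. These 2 were Fcrl1, higher by 1.83 ± 0.43 (edgeR adjusted p = 0.0866), and Ms4a1, at −3.31 ± 1.11 (edgeR adjusted p = 0.226), and in both genes the CPM of the groups did not overlap. Without sgEzh2 + sgLuc replicate 3 in the fit, Fcrl1 was called. In sgBcor + sgRunx1 against sgRunx1 + sgLuc, 0 of 10 were called by edgeR (1.24% of all genes), 3 had an unadjusted p under 0.05 and 1 was called by DESeq2. Cr2 was at least 9.92-fold lower there, with 0 reads in 3 libraries against 14, 10 and 8 reads (edgeR adjusted p = 0.162).

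Between the doubles, Fcrl1 and Cd22 were higher in sgEzh2 + sgRunx1 than in sgBcor + sgRunx1. The differences were 1.66 ± 0.43 and 2.73 ± 0.77 (edgeR adjusted p = 0.0236 and 0.0381), 2 of 10 members where 4.83% of all genes were called higher. Neither call held throughout: Cd22 was lost without sgEzh2 + sgRunx1 replicate 1, 3 or 4 or sgBcor + sgRunx1 replicate 1 or 3, and Fcrl1 without sgEzh2 + sgRunx1 replicate 4 or any 1 of the sgBcor + sgRunx1 libraries. For 0 of 10 members did a double differ by edgeR from the sum of its single effects, either for Ezh2 with Runx1 (0.527% of all genes) or for Bcor with Runx1 (3.22%). At an unadjusted p under 0.05 there were 3 and 1, and DESeq2 called 2 and 1. For Ezh2 with Runx1, Cr2 was at −5.95 ± 1.35 and Ms4a1 at −5.08 ± 1.26 (edgeR adjusted p = 0.0581 and 0.0722). For Bcor with Runx1, Cr2 was at −3.42 or lower with 3 reads over sgBcor + sgRunx1 (edgeR adjusted p = 0.142).

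The ranks of Fcrl1 and Ms4a1 among the members changed in the groups with the Runx1 guide, most in sgEzh2 + sgRunx1. In sgEzh2 + sgRunx1 Fcrl1 stood second at 5.65 ± 1.22 FPKM, behind Cd37 at 330 ± 22.6, and Ms4a1 last at 0.0240 ± 0.0439 FPKM (mean ± SD, n = 4). In sgLuc Fcrl1 had rank 7 and Ms4a1 rank 5. The ranks were 5 and 8 in sgRunx1 + sgLuc, and 4 and 8 in sgBcor + sgRunx1. The ratio of Fcrl1 to Ms4a1 reads was 0.190 to 0.667 in the 12 libraries without the guide. It was 2.76, 8.21 and 3.65 in sgRunx1 + sgLuc, 5.16, 10.6 and 14.8 in sgBcor + sgRunx1, and 39.1 and 628 in the 2 sgEzh2 + sgRunx1 libraries with any Ms4a1 read. The ratio was chosen after its values were seen, and the sets did not overlap. For Cd22 to Ms4a1 the sets did overlap. That ratio was 1.05 to 653 in the 8 libraries with the guide and any Ms4a1 read, and 0.729 to 1.72 without the guide. The ratios of Cr2 to Fcrla, Cr2 to Cd72 and Fcer2a to Fcrla overlapped as well.

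**Figure D5:**
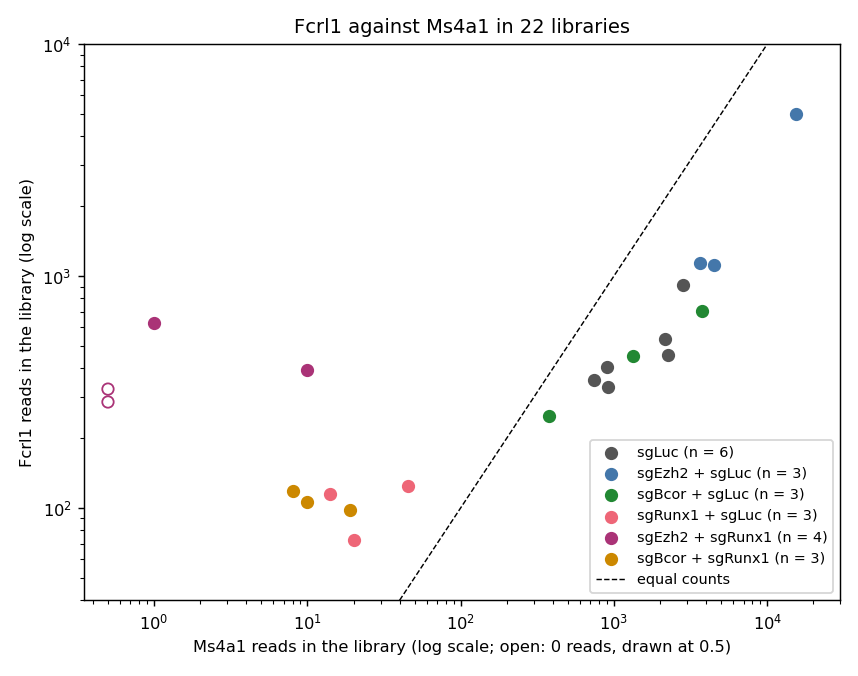
Reads of Fcrl1 against reads of Ms4a1 in each library, both on log scales, with the line of equal counts; open circles are libraries with 0 Ms4a1 reads. All 12 libraries without the Runx1 guide lie to the right of the line and all 10 with it to the left, with 73 to 628 Fcrl1 reads beside 0 to 45 of Ms4a1.

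Across the 22 libraries the 36 pairs among the 9 members other than Cd37 had Pearson correlations of log2 CPM of 0.70 to 0.97 (median 0.91), and the 9 pairs with Cd37 0.24 to 0.38. Outside the set, the 8 genes most like the members' mean log2 CPM were Sit1 (r = 0.99), Scd1 and Ffar1 (0.98), Cacna1i (0.98), Fcmr and Pxdc1 (0.97), H2-Ob and Ccr6 (0.97). Without sgEzh2 + sgLuc replicate 3, 6 of these stayed among the first 8 and Ptprcap and H2-DMb2 replaced H2-Ob and Ccr6. These values describe libraries that fall into sets with and without the Runx1 guide and that share scaling. Sit1, a transmembrane adaptor of lymphocytes, fell by 6.28 ± 0.58 in the comparison without sgLuc, and the desaturase gene Scd1 by 7.22 ± 0.55 (edgeR adjusted p = 7.36e-07 and 3.33e-07). Sit1 lies at chr4:43482081-43483734, in the neighbourhood of the member Cd72 at chr4:43446462-43454628, both on the minus strand (GENCODE M21, GRCm38).

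The remaining members lie at chr19:11249675-11266241 (Ms4a1, minus strand), chr1:195136811-195176716 (Cr2, minus), chr8:3681737-3694175 (Fcer2a, minus), chr3:87376387-87402934 (Fcrl1, plus) and chr1:170917576-170927583 (Fcrla, minus). Cd22 and Cd37 share a chromosome, at chr7:30865402-30880342 and chr7:45233632-45239115 on the minus strand, and of these Cd22 was called lower with the Runx1 guide and Cd37 was not. Cxcr5 lies at chr9:44511787-44561877 and Tnfrsf13c at chr15:82221743-82224369, both on the minus strand.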

How the data were processed

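Whole-marrow mRNA libraries of 22 mice were grouped by sample title. Deposited read counts per gene and FPKM were used, and per the submitters' processing notes the authors ran fastp, HISAT2 and HTSeq with build mm9. The sources used here do not name versions, annotation or strand use. The deposited FPKM equals the count over the library total and 1 length per gene in 14383 of 14383 genes with a read in every library (relative tolerance 1e-06). Positions come from GENCODE M21 (GRCm38) and none was converted.

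Counts were filtered with filterByExpr (minimum count 10, 17659 genes), scaled by TMM and tested with edgeR 4.0.16 (R 4.3.3; robust quasi-likelihood fit, 6 group means, 22 libraries, 16 residual degrees of freedom), with Benjamini-Hochberg adjustment over all genes and calls under 0.05. The SE is the log2 fold change over the square root of F. Alternatives were RLE scaling, library totals alone, no filter, DESeq2 1.42.0, only the groups compared, a replicate block and leaving out each library. The test was checked on simulated counts. Likeness used log2 CPM with a prior count of 2. List genes were named in order of p, up to 4 per list, with partners of members and marker genes. Members and lists were chosen with earlier results of these data known. The labels do not say that replicates were separate experiments, and p-values measure the spread between these mice.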

Additional observations from a re-analysis of the deposited data

Results flagged for a closer look

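In 20 groups of member levels tested for a library far from the rest, 1 was found, and chance gives about 1 in 20. Only sgLuc and sgEzh2 + sgRunx1 were tested, since groups of 3 were passed over. A library such as sgEzh2 + sgLuc replicate 3 could therefore not be flagged here. Ms4a1 in sgEzh2 + sgRunx1 replicate 3 was 0.243 CPM (10 reads), apart from 0, 0 and 0.0174 CPM in the other 3 mice. The gap was 0.928 of the group's range, above the limit of 0.829.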

How the results depend on the processing

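Of 160 pairs of member and comparison, 78 were called, 58 kept the call under every alternative run, and 0 of the 78 reversed. The count of 9 members lower with the Runx1 guide against sgEzh2 + sgLuc and sgBcor + sgLuc held under all of them. Counts that moved by over 1.5 times, or from or to 0, follow. For sgEzh2 + sgLuc against sgLuc, 6 members were called with library totals alone, 1 with the replicate block, 0 with only the groups compared and 0 to 6 when leaving out 1 library. For sgEzh2 + sgRunx1 against sgBcor + sgRunx1 it was 1 with no filter, 0 with the block, 1 with the block by description numbers and 0 to 2 without 1 library. For sgBcor + sgLuc against sgEzh2 + sgLuc it was 1 with no filter, 0 with either block, 0 with only the groups compared and 0 to 3 without 1 library. For sgEzh2 + sgRunx1 against sgRunx1 + sgLuc, DESeq2 called 2, only the groups compared gave 1 and leaving out 1 library 0 to 1. For sgBcor + sgRunx1 against sgRunx1 + sgLuc, DESeq2 called 1 and leaving out 1 library gave 0 to 1. For the interaction of Ezh2 and Runx1 guides, DESeq2 called 2, the block by description numbers 1 and leaving out 1 library gave 0 to 2. For Bcor and Runx1, DESeq2 called 1, only the groups compared gave 1 and leaving out 1 library 0 to 1. For sgRunx1 + sgLuc against sgBcor + sgLuc, leaving out 1 library gave 3 to 9. Among single calls, Fcrl1 and Fcrla in sgEzh2 + sgRunx1 against sgEzh2 + sgLuc were lost with only the groups compared, and both in sgBcor + sgRunx1 against sgBcor + sgLuc without sgBcor + sgLuc replicate 1. The cause of these shifts was not tested.

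Replicate numbers of the titles do not pair the mice: over 46 pairs of libraries with the same number, correlations of deviations from the group means ran from −0.13 to 0.10 and 0 exceeded 0.1, and 5 of 22 libraries were most like one with their own number. The description gives 4 libraries another number, and with those numbers, an alternative chosen after seeing the data, 2 of 43 pairs exceeded 0.1 and 8 libraries were most like their own number. With either block, 8 members were lower in sgRunx1 + sgLuc against sgLuc and 7 in sgEzh2 + sgRunx1 against sgLuc, and the uncalled log2 fold change of Cd37, sgRunx1 + sgLuc against sgLuc, turned from −0.14 to 0.0489 with title numbers and 0.0269 with description numbers. Of member levels by group, Cr2 in sgBcor + sgRunx1, with 0 reads, lay below the limit of 3 reads.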
